A study of Mus musculus with 21 samples.

Results

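Skint genes encode membrane proteins of the immunoglobulin superfamily, related to butyrophilins, and lie together on mouse chromosome 4. Of the 11 Skint genes in the count files, the 8 described here (Skint1, Skint2, Skint5, Skint6, Skint7, Skint8, Skint10 and Skint11) were chosen by their CPM (a gene's counts scaled to the library's total): each was present in every library with counts. Skint3, Skint4 and Skint9 were left out because they were nearly absent from some libraries. The choice therefore rests on measured levels, and the presence of the 8 genes is no result. The files list 49315 genes in all.

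Skint proteins are made in thymic epithelium and in the suprabasal keratinocytes of the epidermis. Skint1 is the founding member: it is needed in the thymus for the selection of the gamma delta T cells that go on to populate mouse epidermis as dendritic epidermal T cells, which carry a single, nearly invariant receptor. The functions of most other members are much less well known.

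Total RNA of mouse epidermis was sequenced after removal of ribosomal RNA, in 21 samples in 7 groups of 3. Every gene was at 0 in 13 files, all of them from mice of 3 weeks, so 8 libraries could be used. The groups that remained were epidermis of 6-month-old wild-type mice labelled as a strain-specific control (control 1 to 3), epidermis of 6-month-old K14CreTfap2afl/flTfap2bfl/fl mice (double knockout 1 to 3), and epidermis of 3-week-old K14CreTfap2bfl/fl mice (Tfap2b knockout 1 and 2). K14Cre is a recombinase driven by the keratin 14 promoter, which is active in basal keratinocytes, and Tfap2a and Tfap2b encode the transcription factors AP-2 alpha and AP-2 beta. The labels name no Cre or floxed allele in the controls and do not say how the strain was matched or whether samples are single animals, so p-values measure the spread between these samples.

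The library totals ran from 11318181 to 17746284 counts. Tfap2a stood at 165, 140 and 210.1 CPM in control 1, 2 and 3. Under the double knockout label the values were 229, 213 and 309 CPM. For Tfap2b the controls gave 57.3, 86.6 and 71.0 CPM, and double knockout 1 to 3 gave 53.8, 57.2 and 56.9 CPM. Tfap2b knockout 1 and 2 gave 44.9 and 71.7 CPM of Tfap2b. Between the groups at 6 months, Tfap2a was higher (log2 0.47, edgeR adjusted p = 0.118) under the double knockout label. Tfap2b was slightly lower there (log2 -0.43, edgeR adjusted p = 0.111), and neither change passed 0.05. Neither gene was thus absent by whole-gene counts. These counts include exons outside any deleted part, and the deleted exons are not given in the sources used here. Directions below follow the labels. Keratinocyte markers were present in all 8 libraries, with 15 suprabasal genes summing to between 17509 and 24530 CPM. Control 1, control 2 and Tfap2b knockout 1 stood apart in other ways. Over 1418 olfactory and vomeronasal receptor genes, which epidermis is not known for,, control 1 held 1.61 and control 2 held 3.19 counts per exonic kilobase, against 0.0970 to 0.195 in the other 6. Tfap2b knockout 1 held 2556 CPM of 6 fibroblast markers and 1903 CPM of 4 adipocyte markers, against 17.3 and 0.320 CPM in Tfap2b knockout 2. For the 8 Skint genes, the receptor-gene density would give at most 4.12% of a gene's counts in a library.

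The 11 genes lie within 2.33 Mb of chromosome 4 (GRCm38), from 111919392 to 114245028, in the order Skint8, Skint7, Skint1, Skint4, Skint3, Skint9, Skint2, Skint10, Skint6, Skint5 and Skint11. Skint9, Skint10, Skint6 and Skint5 are on the minus strand and the rest on the plus strand. Members differ in how much sequence they share. Windows around the start sites (RefSeq, GRCm38.p6, 250 bases before to 50 after the start) were aligned, and all 11 genes had an entry. Identical bases, divided by all 300 of a window, came to 89.7% for Skint5 and Skint6, the highest of the 55 pairs. For Skint10 and Skint11 the share was 70.3% (211 of 247 aligned bases). This share falls where windows overlap only in part. Skint7 and Skint8 had 109 identical of 120 aligned bases and the longest shared run, 51 bases. The 250 bases before each start are shown for these pairs because the levels of each pair are set side by side below. Capitals mark the longest identical run of each pair within these 250 bases, 26 bases for Skint5 and Skint6 and 20 bases for Skint10 and Skint11. After the start, outside the part shown, Skint5 and Skint6 share a run of 30 bases. Each is written 5′ to 3′ on its gene's strand.
Skint5, chr4:113999504-113999753, minus strand: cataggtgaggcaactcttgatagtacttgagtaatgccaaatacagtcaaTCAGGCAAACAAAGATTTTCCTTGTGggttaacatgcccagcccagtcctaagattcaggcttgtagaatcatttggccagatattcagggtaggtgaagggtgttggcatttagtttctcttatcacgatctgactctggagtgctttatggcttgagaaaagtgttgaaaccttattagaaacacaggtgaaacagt
Skint6, chr4:113286974-113287223, minus strand: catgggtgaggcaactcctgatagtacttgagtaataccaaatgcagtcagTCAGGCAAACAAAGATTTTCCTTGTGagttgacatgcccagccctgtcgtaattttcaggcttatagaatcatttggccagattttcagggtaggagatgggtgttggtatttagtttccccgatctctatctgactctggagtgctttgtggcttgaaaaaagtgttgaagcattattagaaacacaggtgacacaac
Skint10, chr4:112774862-112775111, minus strand: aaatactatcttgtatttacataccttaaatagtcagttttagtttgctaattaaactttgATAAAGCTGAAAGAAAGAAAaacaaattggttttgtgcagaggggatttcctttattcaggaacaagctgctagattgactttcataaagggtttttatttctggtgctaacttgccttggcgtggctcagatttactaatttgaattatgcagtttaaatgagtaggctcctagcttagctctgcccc
Skint11, chr4:114163134-114163383, plus strand: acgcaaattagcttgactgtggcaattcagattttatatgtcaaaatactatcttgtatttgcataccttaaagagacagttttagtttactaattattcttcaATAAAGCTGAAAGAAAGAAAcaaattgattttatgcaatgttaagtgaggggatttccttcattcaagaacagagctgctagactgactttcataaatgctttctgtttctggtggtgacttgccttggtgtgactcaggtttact
The letters of an AP-2 motif, GCCNNNGGC, were searched on both strands of 27025 promoters of 300 bases. They occurred in 16.5% of all promoters and in 0 of the 8 members' windows. TATAAA occurred in 14.2% of all promoters and in 6 of the 8, those of Skint1, Skint2, Skint6, Skint7, Skint8 and Skint11. Counted from the first base of the window, these began at 211, 233, 258, 220, 42 and 33, with the start after base 250. The match was by letters alone, on either strand and wherever they lay, so a role at the start is not shown. TGANTCA, the AP-1 motif, occurred in 7.93% of all promoters and in the window of Skint11 alone. In the coding and other exonic sequence, 150-base words were shared between genes only for Skint7 and Skint8, which had 88 in common. A small part of the counts of this pair may thus be divided between them. Shorter identical runs joined the longest coding transcripts of Skint5 and Skint6 (98 bases) and of Skint2 and Skint3 (68 bases). Reads shorter than these runs could be ambiguous there too, which was not tested.

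Divided by exonic length, the highest member was Skint5, with a mean over the 8 libraries of 57.8 CPM per exonic kb and a range from 42.1 to 96.4. Skint10 followed with a mean of 50.4 and a range from 9.30 to 87.2, Skint11 with 42.1 and a range from 18.0 to 64.6, Skint1 with 38.4 and a range from 12.3 to 75.5, and Skint6 with 37.3 and a range from 17.2 to 55.0. Skint5 exceeded Skint10 in 6 of 8 libraries, as Skint10 did Skint11, and neither Skint11 over Skint1 nor Skint1 over Skint6 held in more than 4 of 8, so the ranges of these 5 neighbours overlap. Skint7 (mean 11.95), Skint8 (9.53) and Skint2 (8.44) were lower, and Skint6 exceeded Skint7 in 8 of 8 libraries.

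Summed over the 8 genes, the level was 950.1, 821 and 1352 CPM in control 1, 2 and 3. It was 625, 752 and 800.2 CPM in double knockout 1, 2 and 3, and 690.1 and 1072 CPM in Tfap2b knockout 1 and 2. The double knockout libraries all lay below the controls, but double knockout 3 (800.2 CPM) was only just under control 2 (821 CPM). A gap without overlap, in either direction, was found in 38.7% of all genes tested. With Skint3, Skint4 and Skint9 added, the groups overlapped: double knockout 3 was at 1121 CPM and control 2 at 824 CPM. In bulk epidermis, fewer cells of a type and less RNA per cell cannot be told apart. Skint5 took the largest share by CPM in 6 of the 8 libraries, Skint10 in control 2 (39.7% of the sum) and Skint1 in double knockout 3 (28.4%). Skint10 made up 4.35% of the sum in double knockout 3, and Skint1 made up 4.52% in control 2.

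**Figure D1:**
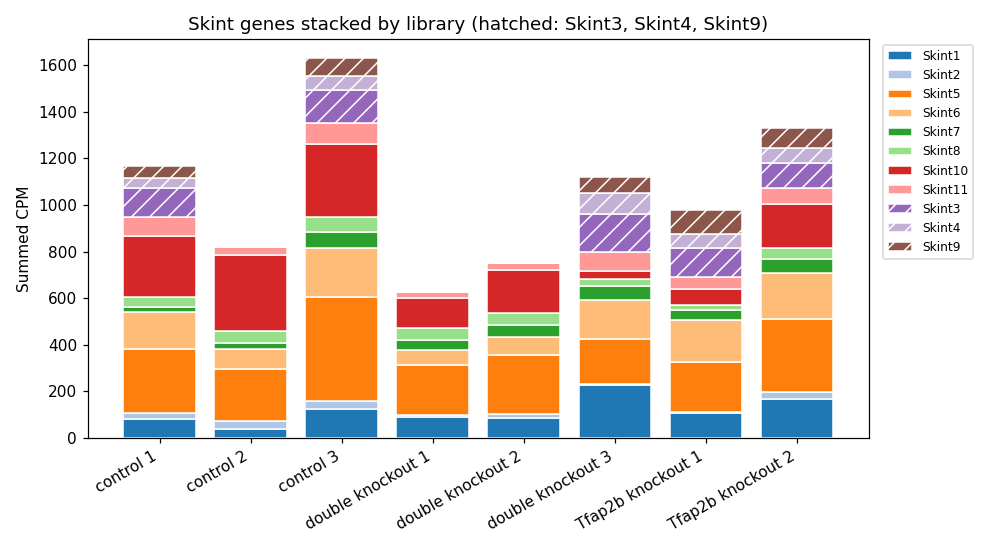
Stacked bars show the summed CPM of the Skint genes in each of the 8 libraries, with the 8 described genes as plain blocks and Skint3, Skint4 and Skint9 hatched. The hatched blocks are nearly missing in control 2 and in double knockout 1 and 2, while the plain blocks reach 625 to 1352 CPM in all 8.

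Skint3, Skint4 and Skint9 divided the libraries in a way that crossed the labels, and the rule of choice turns on them. Skint3 was at 122, 1.94 and 141 CPM in control 1, 2 and 3, at 0, 0.409 and 160 CPM in double knockout 1, 2 and 3, and at 125 and 110.5 CPM in Tfap2b knockout 1 and 2. A count of 0 in double knockout 1 allows up to 3 counts, or 0.217 CPM. Control 2, double knockout 1 and double knockout 2 were thus under 5 CPM, and the other 5 libraries were at 110.5 CPM or above. Skint4 and Skint9 were low in the same 3 libraries: 0.353, 0.217 and 0.136 CPM for Skint4 and 1.15, 0 and 0.273 CPM for Skint9. In control 2, the counts of Skint3, Skint4 and Skint9 were 22, 4 and 13. The receptor-gene density of that library alone would give 12.25, 13.9 and 4.38, so Skint3 and Skint9 lay above it and Skint4 below. In double knockout 2 the counts were 6, 2 and 4, against 0.410, 0.466 and 0.146 from its density. In double knockout 1 they were 0, 3 and 0, against 0.751, 0.853 and 0.268. Of 13580 genes with at least 1 CPM in the other 5 libraries, 7 were more than 10 times lower in each of the 3 libraries than in the lowest of those 5, by a rule chosen after seeing the data. All 7 lay in the Skint interval: Skint3, Skint4, Skint9, and the pseudogene or antisense genes Gm12820, Gm12823, Gm12816 and Gm12818. None showed the reverse. Skint3 itself set the split, so its place among the 7 was fixed in advance. The planned rule asked for at most 3 counts where Skint3 had at most 3, and at least 1 CPM elsewhere. It turned on double knockout 1 alone and gave 1 gene, Ubxn10, on chromosome 4 outside the Skint interval. At 5 CPM it gave 0 genes.

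**Figure D2:**
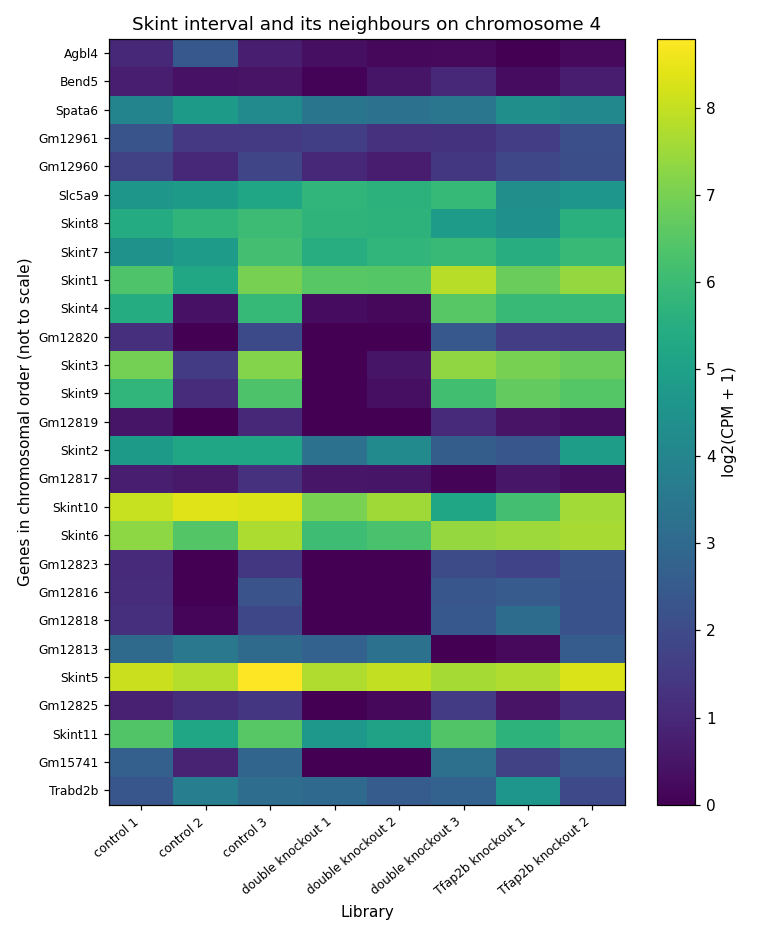
Cells show log2(CPM + 1) of the Skint genes and of the other 16 genes within 500 kb of the cluster with at least 1 CPM in a library, with genes in chromosomal order and libraries in columns. Skint3, Skint4 and Skint9 are dark in control 2, double knockout 1 and double knockout 2, as are several low genes, among them Gm12820 within Skint4, and Gm12823, Gm12816 and Gm12818 within Skint6. The 8 described genes are not.

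Did the levels of the 8 genes follow the labelled group, or the split that Skint3 made? The groups at 6 months were compared with edgeR's quasi-likelihood test over 17755 genes. At an adjusted p below 0.05 (Benjamini-Hochberg), 14.9% of all genes passed in either direction and 8.59% passed as lower in the libraries labelled double knockout. All 8 members were high enough to be tested. Of the 8 members 1 passed, Skint2, as lower, and 7 did not. The median of the fitted log2 fold changes was -0.60 over the members and -0.04 over all genes tested.

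Skint2 (ENSMUSG00000034359, bases 112557194 to 112652248) was 26.9, 35.1 and 34.8 CPM in control 1, 2 and 3. It was 8.76, 17.2 and 5.02 CPM in double knockout 1, 2 and 3, and 4.16 and 28.9 CPM in Tfap2b knockout 1 and 2. The controls were tight and the double knockout libraries all lay below them. The group means were 32.2 ± 4.63 CPM (SD, n = 3) and 10.3 ± 6.27 CPM (SD, n = 3). The fitted log2 difference was -1.71 ± 0.39 (SE; edgeR adjusted p = 0.0221). The call was lost in 6 of 18 alternatives. Among them were the fits without control 1, control 2 or double knockout 1 (log2 -1.81, -1.64 and -1.56). It was also lost when all 8 libraries shared 1 fit, and with the planned Skint3 covariate given below. Among the 3-week libraries, Tfap2b knockout 1 was as low as double knockout 3 and Tfap2b knockout 2 was near the controls.

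Skint10 (ENSMUSG00000048766, bases 112711147 to 112774866) was 263, 326 and 314 CPM in control 1, 2 and 3. It was 128, 183 and 34.8 CPM in double knockout 1, 2 and 3, and 70.6 and 188 CPM in Tfap2b knockout 1 and 2. As for Skint2, no library labelled double knockout reached a control, but double knockout 3 lay far under the other two. The means were 301 ± 33.2 and 115 ± 75.0 CPM (SD, n = 3 each). The fitted log2 difference, -1.46 ± 0.55 (SE), missed the threshold (edgeR adjusted p = 0.125). Without double knockout 3 the change was -0.99 and passed (edgeR adjusted p = 0.0194). Skint2 and Skint10, neighbours on the chromosome, were the 2 members of 8 whose 3 double knockout libraries did not overlap the 3 controls. Such a gap was found in 38.7% of all genes tested, so the share among the members is no higher than in the background.

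Skint8 (ENSMUSG00000078599, bases 111919392 to 111950358) was 41.9, 52.8 and 63.6 CPM in control 1, 2 and 3. It was 51.1, 50.4 and 27.4 CPM in double knockout 1, 2 and 3, and 20.4 and 47.4 CPM in Tfap2b knockout 1 and 2. Its groups overlapped, and the change of -0.37 ± 0.25 (SE) did not pass (edgeR adjusted p = 0.325). Skint2, Skint8 and Skint10 share their 2 lowest libraries, double knockout 3 and Tfap2b knockout 1, which differ in label and in age. This pattern was noticed after the values were seen. The share of all genes with the same 2 lowest libraries was not counted, so it is not shown to be particular to these genes. These 2 libraries are both above 5 CPM of Skint3, and only Tfap2b knockout 1 was high in fibroblast and adipocyte markers; the part of these markers in its Skint levels was not tested. The pseudogene Gm12813, between Skint6 and Skint5, had the same 2 lowest libraries, with 0 and 2 counts against 61 to 128 in the others; it was singled out after its values were seen.

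Skint1 (ENSMUSG00000089773, bases 112006269 to 112029538) was 82.5, 37.1 and 126 CPM in control 1, 2 and 3. It was 89.3, 87.5 and 227 CPM in double knockout 1, 2 and 3, and 108 and 168 CPM in Tfap2b knockout 1 and 2. The highest and the lowest library differed 6.13-fold, and control 3 exceeded double knockout 1 and 2. The means were 81.9 ± 44.4 and 135 ± 80.3 CPM (SD, n = 3 each), and the change of 0.65 ± 0.55 (SE) did not pass (edgeR adjusted p = 0.463). Divided at 5 CPM of Skint3, a level chosen after seeing the data, each double knockout library was above the controls of like Skint3 level. The mean of double knockout 1 and 2 was 2.38 times control 2, and double knockout 3 was 2.18 times the mean of control 1 and 3. Control 2 and double knockout 3 each stood alone on their side. The share of all genes with this order was not counted.

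Skint7 (ENSMUSG00000049214, bases 111972923 to 111988223) was 22.1, 27.3 and 71.2 CPM in control 1, 2 and 3. It was 43.5, 53.7 and 59.6 CPM in double knockout 1, 2 and 3, and 43.6 and 60.3 CPM in Tfap2b knockout 1 and 2. Control 3 was the highest of the 8 libraries and the other controls the lowest, so the groups overlapped. The change was 0.31 ± 0.40 (SE; edgeR adjusted p = 0.628). Without control 3 it was 1.09 and passed (edgeR adjusted p = 0.00469). In that fit 7544 of 21030 genes passed, a far larger share than with all 6 libraries. The controls left in it were control 1 and control 2, the libraries high in receptor-gene counts.

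Skint5 (ENSMUSG00000078598, bases 113477891 to 113999503) was 273, 222 and 443 CPM in control 1, 2 and 3. It was 213, 250.5 and 193 CPM in double knockout 1, 2 and 3, and 214 and 311 CPM in Tfap2b knockout 1 and 2. It varied least of the 8 across libraries, 2.29-fold from lowest to highest, and control 3 carried most of that range. The change was -0.59 ± 0.23 (SE; edgeR adjusted p = 0.115), from 313 ± 115 to 219 ± 29.0 CPM (SD, n = 3 each).

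Skint6 (ENSMUSG00000087194, bases 112804616 to 113286973) was 157, 85.5 and 210.4 CPM in control 1, 2 and 3. It was 65.6, 76.6 and 168 CPM in double knockout 1, 2 and 3, and 179 and 198 CPM in Tfap2b knockout 1 and 2. The 3 libraries low in Skint3 were its 3 lowest, at 85.5 CPM or less against 157 CPM or more, although Skint6 was not lost from them. Its promoter is the near copy of that of Skint5 shown above, and Skint5 overlapped between the same libraries. Between the labelled groups the change of Skint6 was -0.61 ± 0.44 (SE; edgeR adjusted p = 0.385). Gm12823, on the other strand, shares 63 exonic bases with Skint6.

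Skint11 (ENSMUSG00000057977, bases 114163384 to 114245028) was 82.8, 34.7 and 90.0 CPM in control 1, 2 and 3. It was 25.1, 32.8 and 84.4 CPM in double knockout 1, 2 and 3, and 50.3 and 69.1 CPM in Tfap2b knockout 1 and 2. As for Skint6, the lowest 3 were the libraries low in Skint3. Between the labelled groups the change was -0.61 ± 0.55 (SE; edgeR adjusted p = 0.487). Skint10, whose promoter is most like that of Skint11, had a different order, with its lowest values in double knockout 3 and Tfap2b knockout 1.

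**Figure D3:**
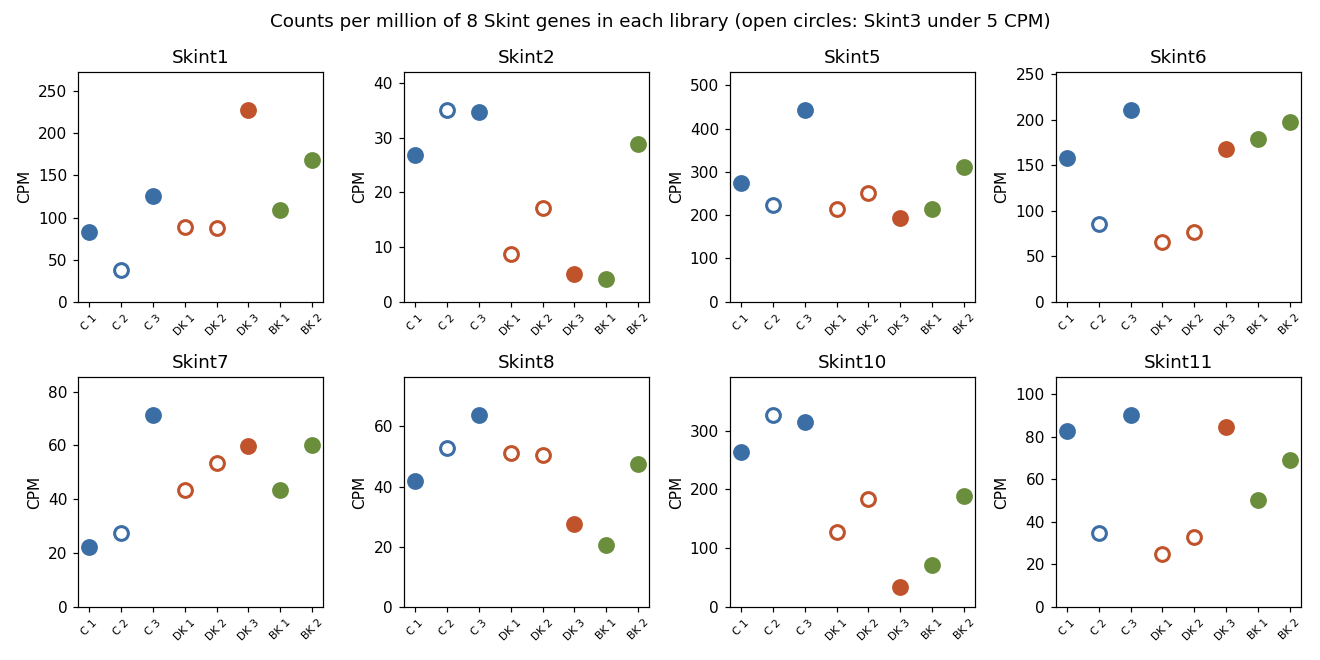
Each panel shows the CPM of 1 gene in the 8 libraries (C, control; DK, labelled double knockout; BK, labelled Tfap2b knockout), 1 point a library, with open circles for libraries under 5 CPM of Skint3. Open circles are the lowest points for Skint6 and Skint11, while DK points lie below C points for Skint2 and Skint10.

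The split that Skint3 made was not a group of the study and was given no test. At 6 months, Skint6 and Skint11 were the 2 members of 8 in which the 3 libraries low in Skint3 did not overlap the other 3, both lower in them, and the same held over all 8 libraries. Over all genes tested, 6.29% did not overlap in either direction and 2.70% were lower. Both counts of 2 members, for the label and for the split, were the same with TMM factors and with the receptor-gene background subtracted.

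With Skint3 under 5 CPM as a covariate, an alternative chosen after seeing the data, the term for the labelled group passed in 9.21% of genes and in 3 members. Skint1 was higher, by 1.12 ± 0.18 on the log2 scale (SE; edgeR adjusted p = 0.0108). Skint2 was lower at -2.05 ± 0.38 (SE; edgeR adjusted p = 0.0172) and Skint10 at -2.12 ± 0.46 (SE; edgeR adjusted p = 0.0367). For Skint6 and Skint11 the term moved toward 0, to -0.27 and -0.22 (edgeR adjusted p = 0.313 and 0.444). With all 8 libraries in the fit, Skint1 alone passed, at 1.16 (edgeR adjusted p = 0.0365). With the planned covariate, at most 3 counts of Skint3, Skint1 did not pass (0.88, edgeR adjusted p = 0.392). Nor did Skint2 (-1.60, edgeR adjusted p = 0.0831) or Skint10 (-1.54, edgeR adjusted p = 0.231). That planned covariate takes in double knockout 1 alone. Either covariate comes from a gene of the same cluster, measured in these same libraries, so the calls made with it are a description. The Skint3 term of the 5 CPM fit over 6 libraries (low libraries against the others) was given no test. It was -1.43 for Skint1, -1.44 for Skint11, -1.18 for Skint6, -0.53 for Skint7 and -0.22 for Skint5. For Skint10, Skint2 and Skint8 it was 1.15, 0.75 and 0.44. A gap without overlap thus did not take in every member with a large Skint3 term. Both terms rest on few libraries: control 2 is the single control under 5 CPM, and double knockout 3 the single double knockout library above it.

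**Figure D4:**
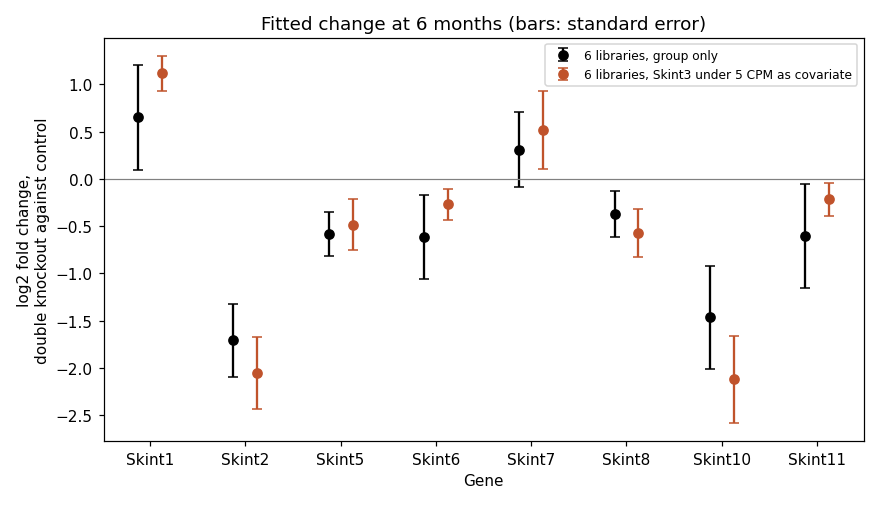
Points are fitted log2 fold changes, libraries labelled double knockout against controls at 6 months, with bars of 1 standard error, for the group alone (black) and with Skint3 under 5 CPM as a covariate (orange). With the covariate, Skint1 lies at 1.12 against 0.65 and Skint10 at -2.12 against -1.46.

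The cells that Skint1 is known for, and the keratinocytes that make Skint proteins, were read from lists. Of 18 genes of dendritic epidermal T cells, 1 was higher, Thy1, and 17 did not pass; the median change was -0.34. Thy1, a surface protein of T cells, was 17.3, 31.4 and 21.1 CPM in control 1, 2 and 3, against 103, 89.7 and 56.9 CPM in double knockout 1, 2 and 3, a log2 change of 1.75 ± 0.27 (SE; edgeR adjusted p = 0.00494). No gene of the T cell receptor or its CD3 partners passed. Tcrg-V5, the variable gene of these cells' gamma chain, was 5.56, 5.48 and 5.66 CPM in control 1, 2 and 3, against 10.2, 10.1 and 1.41 CPM in double knockout 1, 2 and 3 (log2 0.28, edgeR adjusted p = 0.766). Double knockout 1 and 2 lay above the controls and double knockout 3 below them. Tcrg-V5 was singled out after its values were seen. Cd3e, a subunit of the T cell receptor complex, was 25.2, 62.0 and 46.4 CPM in control 1, 2 and 3, against 51.4, 44.7 and 14.6 CPM in double knockout 1, 2 and 3 (log2 -0.35, edgeR adjusted p = 0.656). Trdc, the constant part of the delta chain, changed by -0.52 (edgeR adjusted p = 0.355). Cd7 did not pass either (edgeR adjusted p = 0.413). The summed list was 168, 302 and 232 CPM in the controls, 357, 288 and 148 CPM in double knockout 1, 2 and 3, and 161 and 179 CPM in the Tfap2b knockout libraries. The groups overlapped.

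Of 12 keratinocyte ligands and factors that act on these T cells, 11 were tested, 1 was higher and 1 lower. H60c, a ligand of the receptor NKG2D, was higher by 1.15 ± 0.20 (SE; edgeR adjusted p = 0.00757). Ccl27a, a chemokine of keratinocytes, was lower at -2.04 ± 0.16 (SE; edgeR adjusted p = 0.000202). Cdh1, the E-cadherin that binds epidermal T cells, did not pass (log2 -0.38, edgeR adjusted p = 0.0664), nor did Cxadr, the ligand of JAML on them (0.20, edgeR adjusted p = 0.638).

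Skint genes are made above the basal layer, so the layers of the epidermis are given beside them. Of 15 suprabasal genes 4 were higher and 1 lower, with a median of -0.23: Krt1, a keratin of these cells, was higher by 1.05 (edgeR adjusted p = 0.0081) and Dsc1, a desmosome protein, lower at -0.88 (edgeR adjusted p = 0.043, lost in 11 of 18 alternatives and -0.52 without control 1), while Krt10 did not pass (0.04, edgeR adjusted p = 0.904). Of 10 basal genes 7 were higher and 0 lower, with a median of 0.73; Krt14 was higher by 1.71 (edgeR adjusted p = 0.000969), and the summed list was 9674 to 12307 CPM over control 1 to 3, against 18115 to 21569 CPM over double knockout 1 to 3. Of 12 granular genes 0 were higher and 3 lower, with a median of -0.50, among them Flg2 at -1.47 and Klk5 at -2.42 (edgeR adjusted p = 0.00982 and 0.00742). Of 8 stress genes 4 were higher, with a median of 4.05. Of 6 fibroblast markers 3 were lower, and their sum was 53.0, 157 and 55.7 CPM in control 1, 2 and 3, against 11.7, 22.9 and 23.1 CPM in double knockout 1, 2 and 3. Of 8 genes of Langerhans and other myeloid cells 1 was lower. The part of these lists in the levels of the Skint genes was not tested. Of 10 other butyrophilin family genes, 1 was high enough to be tested, Ermap, a membrane protein of red cells. Ermap was lower at -1.93 ± 0.60 (SE; edgeR adjusted p = 0.045), from 3.88 to 0.972 CPM on average, and the call was lost in 12 of 18 alternatives.

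Around the cluster, Slc5a9, a sugar transporter gene beside Skint8, was 24.0, 26.9 and 35.5 CPM in control 1, 2 and 3, against 53.9, 49.0 and 59.0 CPM in double knockout 1, 2 and 3, higher by 0.83 ± 0.18 (SE; edgeR adjusted p = 0.0167). Spata6, next beyond it, was lower at -1.09 ± 0.26 (SE; edgeR adjusted p = 0.022). The call of Slc5a9 was lost in 6 of 18 alternatives, among them without control 2 (0.79), double knockout 1 (0.88) or double knockout 3 (0.79). That of Spata6 was lost in 7 of 18, among them without control 2 (-0.79) or any single double knockout library. On the other side of the cluster, Trabd2b did not pass (edgeR adjusted p = 0.367).

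Across the 8 libraries, the genes with a profile most like the mean of the 8 members, among 11355 genes of at least 5 CPM on average, were 4930565N06Rik (r = 0.982), Ppm1b (0.972), Sec62 (0.961), Katna1 (0.955) and Mycbp2 (0.953). For Skint1 alone they were Otub2 (0.976), Gm17029 (0.948), Atp6v1d (0.930), Ammecr1l (0.925) and Trrap (0.901). The 8 points come from 8 libraries that share groups and depth, and the values are a description.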

How the data were processed

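RNA of epidermis was measured as whole-number counts per gene, deposited by the authors without normalization, for 49315 Ensembl genes. Trimmomatic 0.36, STAR 2.5.2b and featureCounts of Subread 1.5.2 are named per the submitters' processing notes, with GRCh38 and GRCm38; the coordinates were read as GRCm38. Strand and multi-mapping settings are not given in the sources used here. Of 21 samples, 13 held every gene at 0 and were left out. Symbols came from the reference annotation.

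CPM divided counts by library totals. Groups at 6 months were compared with edgeR 4.0.16 (R 4.3.3; filterByExpr, TMM, robust quasi-likelihood, prior count 2), Benjamini-Hochberg over 17755 genes, threshold 0.05, tested on simulated data first. Depth was 11318181 to 17746284 counts. Alternatives were size factors, filters, DESeq2 1.42.0, a replicate block, leaving out libraries, background subtraction and Skint3 terms. Of 55 promoter pairs, identities were read with Biopython 1.88; figures used matplotlib 3.10.9.

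Named genes were the members, the 3 genes left out, Tfap2a and Tfap2b; of each list up to 4, those highest in mean CPM among the passing genes and the highest of the rest; neighbours within 500 kb; and the 5 genes most like the members. The planned rule of at most 3 counts of Skint3 took in 1 library, and the level of 5 CPM was added after seeing the data. The members and the lists were chosen with earlier results of these data known.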

Additional observations from a re-analysis of the deposited data

Results flagged for a closer look

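Skint1 stood at 168 CPM in Tfap2b knockout 2, above the highest control at 126 CPM, in a library outside the comparison at 6 months. That library is of another age, and no control of 3 weeks had counts.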

How the results depend on the processing

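At 6 months 1 member passed, and 2637 of all genes (1111 higher, 1526 lower). Leaving out a library gave 0 to 2 members and 668 to 7544 genes: 0 members without control 1, control 2 or double knockout 1, and 2 without control 3 (7544 genes) or double knockout 3. Gene counts were 4809 with no filter, 4173 with DESeq2 and 1548 with all libraries in 1 fit, where 0 members passed. The Skint3 rule of at most 3 counts takes in double knockout 1 alone, so leaving it out is the fit above with 0 members and 668 genes; as a covariate it gave 0 and 841. With Skint3 under 5 CPM, leaving the libraries out gave 2 members and 421 genes and using only them gave 4 and 4264. Each of these fits has an arm of 1 library (double knockout 3, then control 2), assumed to vary like the other arm, so it compares libraries rather than conditions. In the 6 libraries the covariate gave 3 and 1635 (694 genes over all 8 libraries). Total counts without factors split the calls into 1376 higher and 1327 lower. The replicate block gave 1729 genes and left 1 member called; the numbers share only a number, since same-numbered deviations correlated at 0.007, -0.169 and -0.068 and 0 of 6 libraries matched best with their own number.

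Of 144 distinct alternatives for single members, 127 kept direction and call, 9 gained and 6 lost a call, all losses of Skint2, and 2 changed sign: Skint5 at 0.13 and Skint8 at 0.0092 with only the libraries under 5 CPM of Skint3, where control 2 is the lone control. Elsewhere the sign changed for Cd3e (-0.629 to 0.0646 on leaving out a library, the latter without double knockout 3), Cxadr (-0.094 to 0.406, the former without double knockout 3, and -0.16 with only those libraries) and Krt10 (-0.113 to 0.209, with -0.0137 without control 2 and -0.113 without double knockout 2, -0.0318 with background subtracted, -0.23 with those libraries left out, -0.0055 with the covariate). The causes were not tested. The biological coefficient of variation was 0.311 over all genes tested, with 3 libraries a group.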
